A study of Mus musculus with 112 samples.

Results

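The transcripts described here are 10 genes of the capillary wall and of its growth factor signalling: Vegfa, its receptors Kdr and Flt1, the angiopoietin receptor Tek and its relative Tie1, the junction genes Cdh5 and Pecam1, the co-receptor Eng, the nitric oxide synthase Nos3 and the clotting factor carrier Vwf. They were taken as a list of named genes, 9 endothelial genes plus the ligand Vegfa, and all 10 were present in both count tables of 32544 gene symbols and among the 11886 genes that passed the filter on low counts. The animals were 56 mice of the Diversity Outbred stock, so that no 2 share a genotype, aged 16 weeks, with no transgene or drug named. Each wore a cast on a single hind limb for 3 weeks, and RNA of the gastrocnemius, a calf muscle, was sequenced from both limbs. The libraries form 4 groups of 28: immobilized limbs and control limbs of males, and immobilized limbs and control limbs of females. The immobilized limb was the right one and the control limb the left one throughout, so limb side and immobilization cannot be told apart. The control limb came from an animal that carried a cast on the other side, and no animal without a cast was included.

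Skeletal muscle fibres are supplied by a dense capillary bed, and active fibres make VEGF-A, the product of Vegfa, which acts on the endothelium next to them. VEGF-A binds the kinase receptor VEGFR2, the product of Kdr, which drives endothelial survival and growth, and it binds VEGFR1, the product of Flt1, more tightly, so that VEGFR1 also holds the ligand away from VEGFR2. Angiopoietins act through TIE2, the product of Tek, to keep vessels quiescent, and TIE1 modulates that receptor. The question put to the data was whether this capillary signal was lower in the immobilized limb of the same animal.

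Total counts per library ran from 1716485 to 9995936, with a median of 4395118. Levels are given as CPM, read counts scaled to a common library size by the trimmed mean of M values. The share of counts from the mitochondrial genome had a median of 13.8% in immobilized and 17.7% in control limbs of males, and of 11.9% in immobilized and 16.3% in control limbs of females; with library sizes computed without those genes 6 of the 10 genes were still called lower over both sexes, and its part beyond scaling was not tested. In 10 libraries, each of a different animal (below called the 10 low-Acta1 animals), the muscle actin Acta1 was under 50% of its median over all libraries: 1 immobilized and 2 control limbs of males, and 4 immobilized and 3 control limbs of females. Markers of T, B and NK cells, summed, exceeded the highest value of the other 102 libraries in 8 of these 10, and the summed lymphatic endothelial markers did so in 9. The control library of male 52 went against its tissue label: Acta1 was at 3.45 CPM there, against 3436 to 50467 CPM in the other 111 libraries, all 6 muscle fibre markers were lower than in any other library, and all 6 adipocyte markers were higher than in any other. In that library 7 of the 10 genes were also at their highest of all libraries, among them Cdh5 at 265 CPM and Kdr at 132 CPM. Results are therefore given with all animals and, where a call changes, without male 52 or without the 10 animals.

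Over both sexes 6 of the 10 genes fell with immobilization and 0 rose. Those that fell were Vegfa, Kdr, Flt1, Tek, Eng and Cdh5, and the drop was deepest for Vegfa and Kdr. Pecam1, Tie1, Vwf and Nos3 did not pass the test. Among all genes tested 10.3% were called lower and 9.54% higher (edgeR adjusted p of at most 0.05). The median log2 fold change, immobilized over control, was -0.20 for the 10 genes and 0.01 for all genes. All 6 genes, which were picked by their fall in these same animals, were lower in the immobilized limb of 18 of 56 animals and higher in that of 1. For the endothelial genes among these 6, fewer endothelial cells and less RNA per cell cannot be told apart in bulk tissue.

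**Figure D1:**
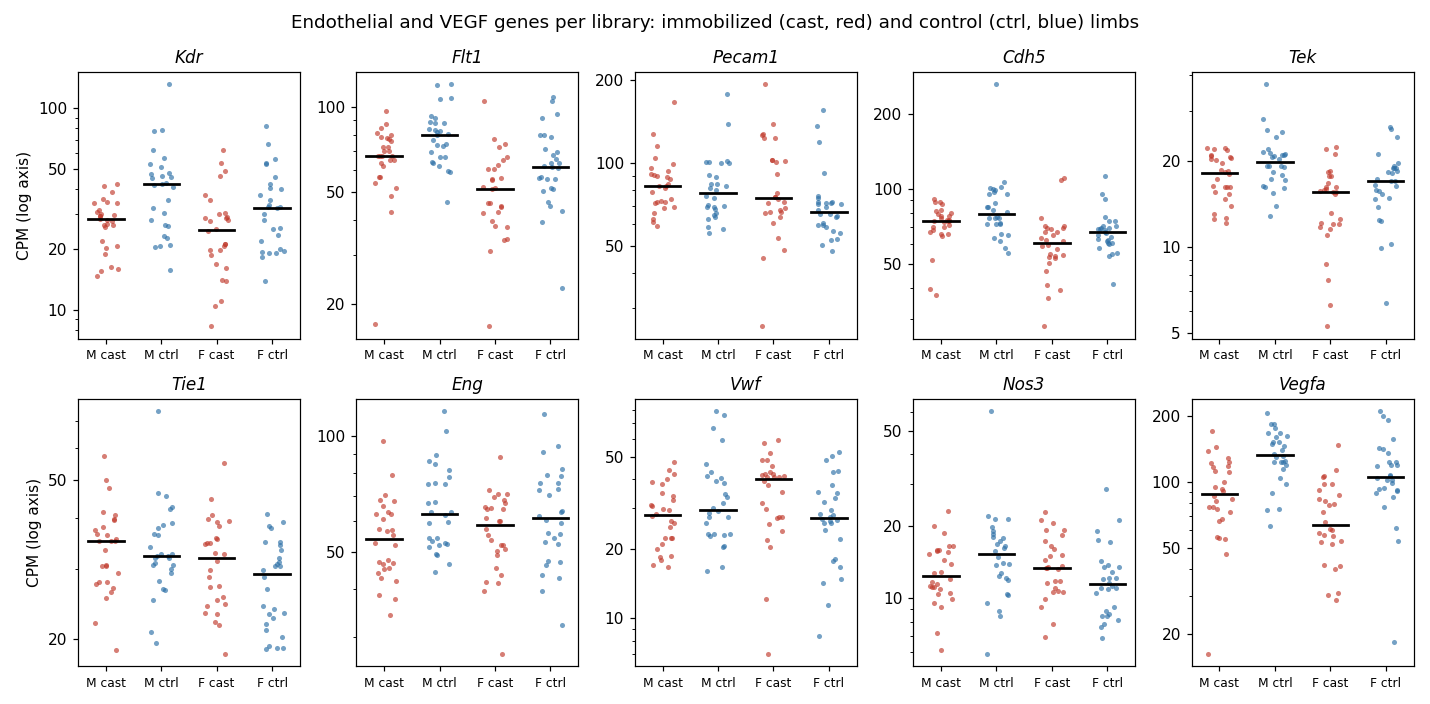
Level of each gene in CPM on a log axis in the 112 libraries, with immobilized limbs (cast) in red, control limbs (ctrl) in blue, males (M) left and females (F) right in each panel; points are single libraries and bars are group medians. The medians of Vegfa and Kdr lie lower in the immobilized limbs of both sexes, all groups overlap, and the highest male control point of Kdr, Cdh5, Tek, Tie1 and Nos3 is the library of male 52.

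Vegfa, the ligand, ranged from 16.3 to 172 CPM with a median of 88.5 CPM in the immobilized limbs of males, against 63.1 to 208 CPM with a median of 134 CPM in their control limbs. In females it ranged from 28.7 to 148 CPM with a median of 63.4 CPM in immobilized limbs, against 18.5 to 211 CPM with a median of 105 CPM in control limbs. The groups overlapped in both sexes, but the immobilized limb was the lower one in 44 of 56 animals. The fitted change over both sexes was -0.65 ± 0.12 in log2 (SE, edgeR adjusted p = 0.00018), so that the level fell by 36.4%, with a 95% interval from -0.89 to -0.42. Vegfa ranked 83 by p among the 11886 genes.

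Kdr, the main signalling receptor for VEGF-A, ranged from 14.8 to 42.2 CPM with a median of 28.1 CPM in the immobilized limbs of males, against 15.8 to 132 CPM with a median of 42.2 CPM in their control limbs. In females it ranged from 8.3 to 61.8 CPM with a median of 24.9 CPM in immobilized limbs, against 14 to 82 CPM with a median of 32.2 CPM in control limbs. The ranges overlapped, and the immobilized limb was lower in 42 of 56 animals. The change over both sexes was -0.47 ± 0.10 (SE, edgeR adjusted p = 0.00096), so that the level fell by 28%. Without male 52, whose control library was the highest, it was -0.44 ± 0.10 (edgeR adjusted p = 0.00119).

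Flt1, which encodes the decoy-like receptor VEGFR1, ranged from 17 to 97.2 CPM with a median of 67.3 CPM in the immobilized limbs of males, against 46.3 to 121 CPM with a median of 80.1 CPM in their control limbs. In females it ranged from 16.7 to 105 CPM with a median of 51.4 CPM in immobilized limbs, against 22.9 to 109 CPM with a median of 61.7 CPM in control limbs. The overlap was wide, and the immobilized limb was lower in 42 of 56 animals, as many as for Kdr. The change was -0.30 ± 0.08 (SE, edgeR adjusted p = 0.008), so that the level fell by 18.6%.

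For the ligand Vegfa and its receptors Kdr and Flt1, each called lower over both sexes, the 250 bases before the annotated starts are shown. They are read 5′ to 3′ on the gene's strand from the RefSeq annotation of the mouse build GRCm38.p6. Capitals mark each GC box, the letters GGGCGG on either strand, a motif that the transcription factor SP1 is known to bind. The windows are chr5:75978456-75978705 on the minus strand for Kdr, chr5:147726012-147726261 on the minus strand for Flt1 and chr17:46032378-46032627 on the minus strand for the upstream start of Vegfa.
Kdr: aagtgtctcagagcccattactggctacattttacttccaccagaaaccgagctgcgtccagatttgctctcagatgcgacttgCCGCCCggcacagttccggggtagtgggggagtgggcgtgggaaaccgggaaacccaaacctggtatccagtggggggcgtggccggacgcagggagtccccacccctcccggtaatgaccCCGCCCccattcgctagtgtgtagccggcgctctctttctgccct
Flt1: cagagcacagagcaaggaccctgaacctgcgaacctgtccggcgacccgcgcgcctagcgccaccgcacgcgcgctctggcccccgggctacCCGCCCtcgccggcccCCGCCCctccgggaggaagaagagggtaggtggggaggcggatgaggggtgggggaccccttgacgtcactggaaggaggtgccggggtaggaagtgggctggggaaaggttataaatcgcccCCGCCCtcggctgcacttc
Vegfa: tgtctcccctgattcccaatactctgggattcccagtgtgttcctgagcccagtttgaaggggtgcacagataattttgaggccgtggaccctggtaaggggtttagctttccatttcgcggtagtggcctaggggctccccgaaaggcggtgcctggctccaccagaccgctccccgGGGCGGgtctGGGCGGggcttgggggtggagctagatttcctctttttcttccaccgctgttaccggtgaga
The GC box occurred 2 times in the window of Kdr, 166 and 45 bases before the start, 3 times in that of Flt1, at 158, 142 and 19 bases, and 2 times in that of Vegfa, at 72 and 62 bases. It occurred 0 times in the windows of Tek, Tie1 and Eng, of which Tek and Eng fell and Tie1 did not pass the test. Of 32851 windows of the same length in the annotation, 32.7% held it, so its presence does not set these genes apart. A hypoxia response core, ACGTG on either strand, was found in none of the 3 windows shown, against 16.6% of all windows. The window of a downstream start of Vegfa, not shown, held 1 such core and 1 GC box, 158 bases before that start. Windows were matched for 6 of the 10 genes, and the factor that binds any of these letters in muscle was not measured.

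The angiopoietin receptors moved apart. Tek, which encodes TIE2, ranged from 5.28 to 22.4 CPM with a median of 16.2 CPM in immobilized limbs of both sexes, against 6.36 to 37.3 CPM with a median of 18.5 CPM in control limbs. It fell by 0.21 ± 0.07 in log2 (SE, edgeR adjusted p = 0.018), with the immobilized limb lower in 38 of 56 animals. Its relative Tie1, an orphan receptor that pairs with TIE2, ranged from 18.4 to 57.2 CPM with a median of 33.1 CPM in immobilized limbs, against 18.9 to 74 CPM with a median of 30.8 CPM in control limbs. Its change was 0.08 ± 0.06 (SE, edgeR adjusted p = 0.37), with a 95% interval from -0.04 to 0.21. Tek lost its call without the 10 low-Acta1 animals, at -0.16 ± 0.07 (edgeR adjusted p = 0.0544).

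The junction genes did not move as 1 group either. Cdh5 encodes VE-cadherin, the adhesion protein of endothelial junctions, and Pecam1 encodes CD31, which is found on endothelium, platelets and some leukocytes. Cdh5 ranged from 27.9 to 111 CPM with a median of 68.3 CPM in immobilized limbs, against 41.5 to 265 CPM with a median of 71.4 CPM in control limbs. It fell by 0.20 ± 0.07 in log2 (SE, edgeR adjusted p = 0.029), in 37 of 56 animals; without the 10 animals the change was -0.13 ± 0.06 and not past the threshold (edgeR adjusted p = 0.104), and with no filter on low counts its call was lost as well (edgeR adjusted p = 0.065). Pecam1 ranged from 25.7 to 193 CPM with a median of 78.2 CPM in immobilized limbs, against 48.2 to 178 CPM with a median of 70.6 CPM in control limbs. Its change was 0.13 ± 0.08 (SE, edgeR adjusted p = 0.23), and the immobilized limb was the higher one in 35 of 56 animals. Without the 10 animals Pecam1 was called higher, at 0.16 ± 0.06 (edgeR adjusted p = 0.0433). Pecam1 was high in every library with low Acta1, at 99.5 to 193 CPM with a median of 131 CPM, against a median of 72 CPM in the other 102.

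Eng encodes endoglin, an endothelial co-receptor for BMP9 and TGF-beta. It ranged from 27.2 to 96.8 CPM with a median of 55.9 CPM in immobilized limbs, against 32.3 to 116 CPM with a median of 62.1 CPM in control limbs. It fell by 0.20 ± 0.07 in log2 (SE, edgeR adjusted p = 0.026) in 38 of 56 animals, and lost its call with no filter on low counts (edgeR adjusted p = 0.0511). Exons of Eng overlap those of Fpgs on the opposite strand, and the sources used here do not say whether counting used the strand, so reads of the overlap cannot be assigned with certainty. Fpgs itself was at a median of 7.83 CPM and rose by 0.25 ± 0.08 (edgeR adjusted p = 0.032), so the pair moved in opposite directions.

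Nos3 and Vwf were the genes whose average over both sexes was nearest 0. Nos3 encodes the endothelial nitric oxide synthase, which relaxes the vessel wall, and Vwf encodes von Willebrand factor, stored in endothelial granules and in platelets and richer in veins than in capillaries. Nos3 ranged from 6.09 to 23.2 CPM with a median of 13.4 CPM in immobilized limbs, against 5.88 to 60.3 CPM with a median of 12.8 CPM in control limbs, and changed by -0.02 ± 0.08 (SE, edgeR adjusted p = 0.91). Vwf ranged from 7.04 to 59 CPM with a median of 30.9 CPM in immobilized limbs, against 8.43 to 78.9 CPM with a median of 28.2 CPM in control limbs, and its change was 0.05 ± 0.10 (SE, edgeR adjusted p = 0.75). The 95% interval ran from -0.16 to 0.13 for Nos3 and from -0.15 to 0.25 for Vwf. Nos3 overlaps Atg9b and a predicted gene on the opposite strand, which leaves its counts uncertain in the same way, although Atg9b itself had a median of only 0.216 CPM.

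**Figure D2:**
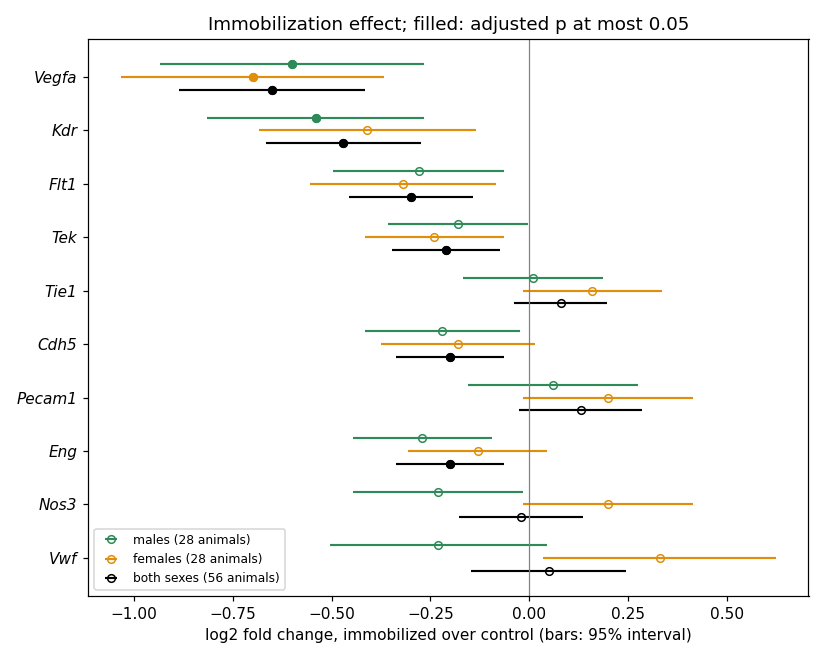
Log2 fold change of immobilized over control limbs for each gene (x axis) in males, females and both sexes, from edgeR; bars span the 95% interval and filled points have an adjusted p of at most 0.05. Vegfa, Kdr, Flt1, Tek, Cdh5 and Eng lie left of 0 in both sexes, while Vwf and Nos3 lie at -0.23 and -0.23 in males and at 0.33 and 0.20 in females.

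Levels between genes were compared per kilobase of exon, in CPM per kb. In the immobilized limbs the order of the medians was Vegfa at 18.4, Cdh5 at 16.3, Eng at 13.8, Pecam1 at 12.6, Tie1 at 6.73, Flt1 at 4.53, Tek at 3.45, Nos3 at 3.23, Kdr at 3.06 and Vwf at 1.92 CPM per kb. In the control limbs Vegfa stood further ahead, at 28.6, and Kdr stood above Nos3, at 3.78 and 3.09 CPM per kb. The middle ranges of neighbours overlapped in most steps: the quartiles of Vegfa and Cdh5 in immobilized limbs were 13.2 to 23.7 and 13.5 to 18 CPM per kb. In immobilized limbs the steps from Pecam1 to Tie1 and from Tie1 to Flt1 were not of that kind, with quartiles of 11 to 16.1, 5.48 to 7.74 and 3.4 to 5.35 CPM per kb. In control limbs the quartiles did not overlap from Vegfa to Cdh5, from Pecam1 to Tie1 and from Nos3 to Vwf. The 2 VEGF receptors thus had lower levels per length than the junction genes in both limbs. Length was the union of all annotated exons of a gene, from a mouse annotation that may differ from the one used for counting. It was 13.5 kb for Flt1 and 9.03 kb for Kdr, against 4.2 kb for Cdh5 and 6.23 kb for Pecam1. Without division by length, Flt1, Cdh5 and Pecam1 had medians of 69.5, 71.4 and 70.6 CPM in control limbs, and Kdr 34.1 CPM. The order thus depends on how length is defined.

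Whether the genes differed in their response was tested on ratios within animals, after the values above had been seen. Each of the 45 pairs of genes was given a permutation test that flips signs over 56 animals (two-sided, 100000 resamples), adjusted by Benjamini-Hochberg over the 45 pairs, and 30 passed. Kdr relative to Pecam1 was lower in the immobilized limb by a mean log2 ratio of -0.58 ± 0.09 (SE), in 43 of 56 animals (permutation p = 1e-05, the smallest these resamples can give, adjusted p = 0.00015). Tek relative to Tie1 was lower by -0.29 ± 0.08 in 38 of 56 animals (permutation test, adjusted p = 0.0019), and Cdh5 relative to Tie1 by -0.29 ± 0.06 in 47 of 56 (permutation test, adjusted p = 0.00015). The receptors Kdr and Flt1 were not told apart, with a mean log2 ratio of -0.16 ± 0.11 (permutation test, adjusted p = 0.21). Flt1 fell less than its ligand, with a mean log2 ratio of Flt1 to Vegfa of 0.35 ± 0.07 (permutation test, adjusted p = 0.00035). Without the 10 low-Acta1 animals 29 pairs passed, and 28 passed both ways.

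Across animals the change of Vegfa was set against the change of each of the 9 endothelial genes, a relation also chosen after the values were seen. The 2 values of an animal come from the same 2 libraries and share their composition and depth. Flt1 had the highest correlation over all animals, with Pearson's r = 0.81 and Spearman's rho = 0.71 over 56 animals (permutation p = 1e-05 for both, adjusted p over 9 relations 9e-05 and 4.5e-05). Without the 2 animals farthest from the median of Vegfa, female 26 and male 35, r was 0.71, and without the 10 low-Acta1 animals it was 0.62. Within animals numbered 1 to 20, 21 to 40 and 41 to 59 it was 0.47, 0.90 and 0.83. Cdh5 had r = 0.51 and rho = 0.54 (permutation p = 0.00015 and 1e-05, adjusted p = 0.00067 and 4.5e-05), with r = 0.50 without the 2 farthest animals. Without the 10 low-Acta1 animals r was 0.61 for Cdh5, about that of Flt1, and in animals numbered 1 to 20 it was 0.58 for Cdh5 and 0.48 for Eng, above that of Flt1, so the order of the genes depended on the animals. Kdr, in contrast, had r = 0.24 and rho = 0.27 (permutation p = 0.078 and 0.048, adjusted p = 0.12 and 0.085), although r was 0.55 in the 46 animals left without the low-Acta1 animals. Pecam1 had r = -0.38 and rho = -0.26 (permutation p = 0.0037 and 0.057, adjusted p = 0.011 and 0.085), and that relation rested on few animals, since r was -0.21 without the 2 farthest and 0.13 without the 10. Tek had r = 0.34 and rho = 0.29, and Vwf r = -0.33 and rho = -0.29 (permutation test, adjusted p = 0.021 and 0.076 for Tek, 0.024 and 0.076 for Vwf). Without the 10 animals r was 0.25 for Tek and -0.11 for Vwf. For Tie1, Eng and Nos3 r was 0.10, 0.11 and 0.04 (permutation test, adjusted p = 0.52, 0.52 and 0.77). In the 10 libraries with low Acta1, Vegfa had a median of 46.6 CPM (16.3 to 208) and Flt1 of 35.9 CPM (16.7 to 121). Their medians in the other 102 libraries were 103 and 66.6 CPM. Both upper ends belong to the control library of male 52, where Flt1 was at its highest of all libraries.

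**Figure D3:**
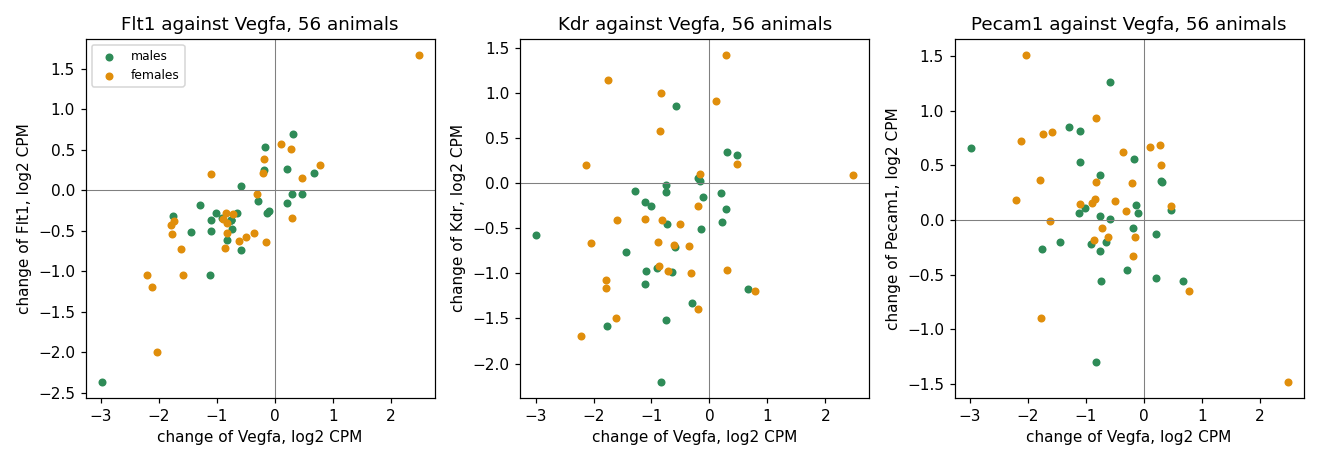
Change within each of 56 animals, immobilized minus control in log2 CPM, of Flt1, Kdr and Pecam1 (y axes) against that of Vegfa (x axis), males in green and females in orange. Flt1 has r = 0.81 with Vegfa and Kdr r = 0.24 over all animals; the points at the far ends of the Vegfa axis are female 26 and male 35, both among the 10 low-Acta1 animals.

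Within each sex fewer genes passed. In males 2 of the 10 genes fell, Kdr at -0.54 ± 0.14 and Vegfa at -0.60 ± 0.17 in log2 (SE, edgeR adjusted p = 0.031 and 0.043), where 1.11% of all genes were called lower and 1.08% higher. In females 1 fell, Vegfa at -0.70 ± 0.17 (SE, edgeR adjusted p = 0.018), where 2.47% of all genes were called lower and 2.09% higher, and Kdr was at -0.41 ± 0.14 (edgeR adjusted p = 0.079). The male calls lay near the threshold. Without male 52 Kdr was at -0.48 ± 0.14 and Vegfa at -0.59 ± 0.17 (edgeR adjusted p = 0.0502 and 0.052), so 0 of the 10 passed. With no filter on low counts both missed as well (edgeR adjusted p = 0.0638 and 0.0901), and without males 15 and 16 Vegfa did (edgeR adjusted p = 0.0525). Without all 10 low-Acta1 animals, both passed in males again, at -0.44 ± 0.14 and -0.56 ± 0.13 (edgeR adjusted p = 0.0359 and 0.00492).

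The male and female effects were compared by the interaction term of the same fit, and 0 of 11886 genes passed, 0% of those tested, while 195 had an unadjusted p up to 0.05. The male minus female difference was -0.13 ± 0.20 for Kdr and 0.10 ± 0.24 for Vegfa, with 95% intervals from -0.53 to 0.27 and from -0.37 to 0.57 (SE, edgeR adjusted p = 1 for both). Vwf and Nos3 stood furthest from 0, at -0.56 ± 0.20 and -0.43 ± 0.15 (SE, unadjusted edgeR p = 0.0086 and 0.0054, adjusted p = 1 for both). Vwf had medians of 28 CPM in immobilized and 29.6 CPM in control limbs of males, and of 40 CPM in immobilized and 27.1 CPM in control limbs of females. Its immobilized limb was the higher one in 10 of 28 males and in 19 of 28 females, and the ranges of all 4 groups overlapped. Without the 10 animals Vwf passed in females, at 0.50 ± 0.15 (edgeR adjusted p = 0.0219). The edgeR interaction, adjusted over all genes, did not pass for Vwf or Nos3 in any alternative run. Its values ran from -0.75 to -0.51 for Vwf and from -0.75 to -0.02 for Nos3, so the size of the Nos3 difference depended on the run. Adipocyte markers also moved in opposite directions by sex: their summed level had a median of 45.6 CPM in immobilized and 75.4 CPM in control limbs of males, and of 361 CPM in immobilized and 148 CPM in control limbs of females. Their median male minus female difference was -1.63 in log2, with 0 of 6 markers past the test, and their part in the values of Vwf and Nos3 was not tested.

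Males and females were also compared within each limb. In the control limbs all 10 genes had higher fitted levels in males, with a median log2 difference, male over female, of 0.29 against -0.01 for all genes, but 0 passed, where 1.73% of all genes were called. Cdh5 came nearest, at 0.37 ± 0.11 (SE, edgeR adjusted p = 0.059), followed by Flt1 at 0.33 ± 0.10 (edgeR adjusted p = 0.083). Without male 52 Cdh5 was at 0.24 ± 0.08. In the immobilized limbs 6 of the 10 genes were higher and 4 lower in males, with a median of 0.07, and 0 passed, where 4.23% of all genes were called. Flt1 was at 0.35 ± 0.12 there (edgeR adjusted p = 0.068).

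Animals were numbered 1 to 59, with males and females alternating in runs of 10, and the effect was recomputed in animals numbered 1 to 20, 21 to 40 and 41 to 59. Vegfa changed by -0.76, -0.61 and -0.55 in the 3 runs over both sexes, and Kdr by -0.54, -0.31 and -0.59. Flt1 had -0.30, -0.36 and -0.22, Tek -0.30, -0.13 and -0.19, Cdh5 -0.22, -0.19 and -0.21, and Eng -0.33, -0.09 and -0.18. All 6 kept a negative sign in each run, but they were picked by their fall over all these animals, so the sign is no separate evidence. Vegfa, Kdr, Flt1 and Eng passed in animals 1 to 20, where 1078 of 11437 genes tested were called (edgeR adjusted p = 0.0016, 0.022, 0.0062 and 0.025). In animals 21 to 40 and 41 to 59, where 1 of 11881 and 2 of 12186 genes tested were called, 0 of the 10 passed.

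**Figure D4:**
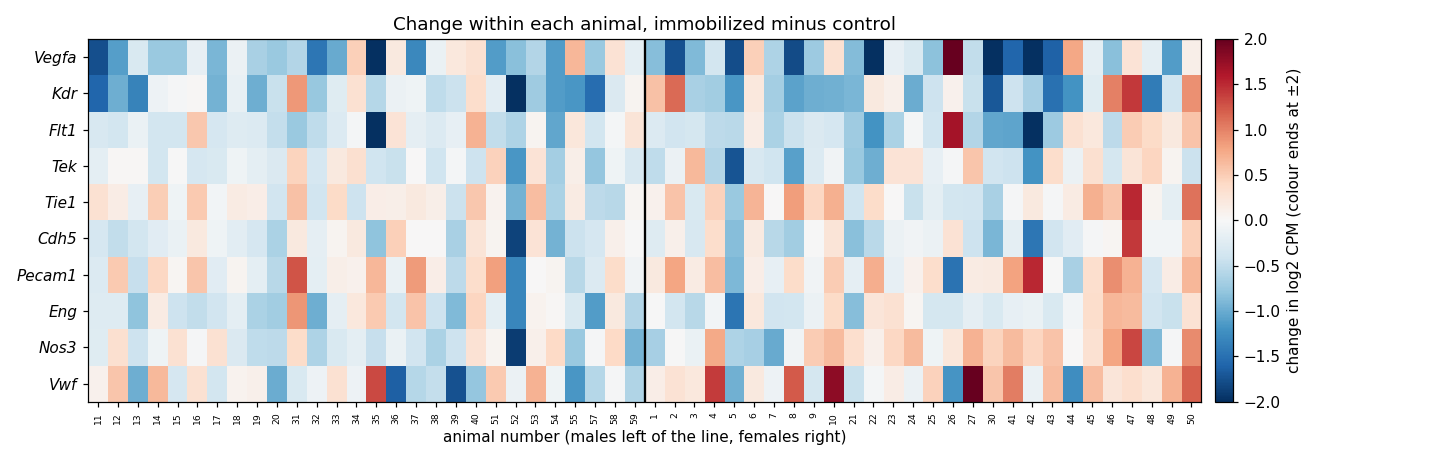
Change of each gene (rows) within each of the 56 animals (columns), immobilized minus control in log2 CPM, blue for lower and red for higher in the immobilized limb, with males left of the line and females right of it. Vegfa and Kdr are lower in 44 and 42 of 56 animals, Pecam1 and Tie1 are higher in 35 and 33, and the dark blue cells of male 52 mark the animal whose control library lacked muscle markers.

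Of 7 other genes of VEGF signalling tested, 1 fell and 1 rose, against 10.3% and 9.54% of all genes, with a median log2 fold change of -0.06. Vegfb, a ligand of VEGFR1 that is abundant in heart and muscle, had a median of 101 CPM (15.4 to 166) in immobilized limbs, against 131 CPM (26.2 to 243) in control limbs, and fell by 0.50 ± 0.11 in log2 (SE, edgeR adjusted p = 0.0017) in 46 of 56 animals. Pgf, which also binds VEGFR1, had a median of 1.79 CPM in immobilized limbs, against 1.25 CPM in control limbs, and rose by 0.48 ± 0.16 (SE, edgeR adjusted p = 0.028); the call was lost with no filter on low counts and with no animal block (edgeR adjusted p = 0.0609 and 0.0509). Nrp1, the co-receptor that presents VEGF-A to VEGFR2, was at -0.20 ± 0.08 and just missed the threshold (edgeR adjusted p = 0.0502). It passed with DESeq2, with limma voom, at a mean of 1 CPM or more, without the 10 animals and in animals numbered 1 to 20, and missed in the other 8 alternatives.

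Of 5 tested genes around TIE2, 2 fell and 1 rose, against 10.3% and 9.54% of all genes, with a median of -0.06. Angpt1, the activating ligand of TIE2, fell by 0.41 ± 0.14 in log2 (SE, edgeR adjusted p = 0.035), with medians of 12 CPM in immobilized and 16.7 CPM in control limbs. Ptprb, which encodes the endothelial phosphatase that removes phosphate from TIE2, fell by 0.37 ± 0.09 (SE, edgeR adjusted p = 0.0017) in 44 of 56 animals, with medians of 49.4 CPM in immobilized and 58.9 CPM in control limbs. Svep1, a matrix protein that binds TIE1, rose by 0.57 ± 0.16 (SE, edgeR adjusted p = 0.0078). Of 9 tested genes of endoglin and BMP receptor signalling, 1 fell and 0 rose, with a median of 0.05: the inhibitory Smad7 was at -0.26 ± 0.09 (SE, edgeR adjusted p = 0.032), while the endoglin partner Acvrl1 was at 0.02 ± 0.06 (edgeR adjusted p = 0.8). Of 12 tested genes of nitric oxide signalling, 2 rose and 2 fell, with a median of 0.00. Ddah2, which breaks down an inhibitor of nitric oxide synthases, rose by 0.58 ± 0.14 (SE, edgeR adjusted p = 0.0021), and Nos1, the synthase of muscle fibres, fell by 0.64 ± 0.18 in log2 (SE, edgeR adjusted p = 0.0073). Nosip, which binds nitric oxide synthase, was higher by 0.16 ± 0.05 and the kinase gene Prkg1 lower, at -0.61 ± 0.23 (SE, edgeR adjusted p = 0.014 and 0.049). Angpt1, Smad7 and Prkg1 lost their calls with no filter on low counts (edgeR adjusted p = 0.0746, 0.0557 and 0.0931), Smad7 and Prkg1 with no animal block (0.0733 and 0.0564), and Prkg1 also with median-of-ratios scaling, without mitochondrial genes in the library size and at a mean of 1 CPM (0.052, 0.0511 and 0.0537).

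Markers of the endothelium as a whole were a separate list, to be read beside the 10.3% of all genes called lower and 9.54% called higher. Of 20 pan-endothelial markers tested, 0 fell and 2 rose, Cldn5 at 0.45 ± 0.17 and Ramp2 at 0.24 ± 0.08 (SE, edgeR adjusted p = 0.047 and 0.021), and their median log2 fold change was 0.04 against 0.01 for all genes. Cldn5 lost its call with limma voom (0.38, limma adjusted p = 0.113), at a mean of 1 CPM and with no filter on low counts (edgeR adjusted p = 0.0507 and 0.0816), and with no animal block, where it was at 0.13 (edgeR adjusted p = 0.672). Egfl7 just missed, at 0.20 ± 0.08 (SE, edgeR adjusted p = 0.0537), and was called higher without male 52 and without the 10 animals (edgeR adjusted p = 0.0209 and 0.0167). It also passed with DESeq2, with median-of-ratios scaling, without mitochondrial genes in the library size and without males 15 and 16, and missed in the other alternatives. The summed level of the 20 was 268 to 730 CPM with a median of 412 CPM in immobilized limbs, against 287 to 1010 CPM with a median of 410 CPM in control limbs. Of 12 capillary markers, 4 fell and 1 rose, with a median of -0.10. Those that fell were the fatty acid transporter gene Cd36 at -0.53 ± 0.13, Btnl9 at -0.76 ± 0.23, Cd300lg at -0.29 ± 0.09 and Rgcc at -0.29 ± 0.09 (SE, edgeR adjusted p = 0.0025, 0.016, 0.016 and 0.023); Aplnr, the apelin receptor gene, rose by 0.45 ± 0.13 (SE, edgeR adjusted p = 0.0085). Muscle fibres and fat cells also express Cd36. Cd300lg and Rgcc lost their calls without the 10 low-Acta1 animals, at -0.20 and -0.21 (edgeR adjusted p = 0.0577 and 0.0858).

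Of 7 tested venous markers 3 rose and 0 fell, against 9.54% and 10.3% of all genes, with a median of 0.45. Ackr1 was at 0.69 ± 0.16, Vcam1 at 0.65 ± 0.21 and Plvap at 0.45 ± 0.15 (SE, edgeR adjusted p = 0.0021, 0.021 and 0.033). Plvap was at 0.75 ± 0.22 in females and 0.14 ± 0.21 in males (SE, edgeR adjusted p = 0.04 and 0.8). Summed venous markers had medians of 158 CPM in immobilized and 110 CPM in control limbs of females. In males these were 121 and 115 CPM, and no gene passed the interaction term. Of 8 tested arterial markers 2 fell and 1 rose, against 10.3% and 9.54% of all genes, with a median of -0.05. Sox17 was at -0.33 ± 0.11, Hey1 at -0.31 ± 0.11 and Fbln5 at 0.28 ± 0.07 (SE, edgeR adjusted p = 0.02, 0.044 and 0.0044). Of 6 tested tip cell and sprouting genes, 0 passed, and their median was 0.01. Sox17 lost its call without the 10 animals (edgeR adjusted p = 0.0567), and Hey1 lost its call without male 52 (edgeR adjusted p = 0.056).

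PGC-1 alpha, the product of Ppargc1a, is known to switch on Vegfa through the nuclear receptor ERR alpha, the product of Esrra. Of the 6 PGC-1 and ERR genes tested, 6 fell and 0 rose, against 10.3% and 9.54% of all genes, with a median log2 fold change of -0.69. Ppargc1a had a median of 17.2 CPM (2.65 to 67.8) in immobilized limbs, against 26.8 CPM (2.89 to 140) in control limbs, and changed by -0.61 ± 0.16 (SE, edgeR adjusted p = 0.0054), lower in 44 of 56 animals. Esrra had a median of 76.8 CPM (24.7 to 127) in immobilized limbs, against 95.8 CPM (33.7 to 144) in control limbs, and changed by -0.32 ± 0.09 (SE, edgeR adjusted p = 0.0073). Esrrg was at -0.81 ± 0.20, Esrrb at -0.81 ± 0.25, Perm1 at -0.76 ± 0.22 and Ppargc1b at -0.36 ± 0.12 (SE, edgeR adjusted p = 0.0039, 0.016, 0.012 and 0.025). Perm1 lost its call with limma voom (-0.59, limma adjusted p = 0.0999) and Ppargc1b with no filter on low counts (edgeR adjusted p = 0.0538). The list was put together with earlier results of Ppargc1a in these data known.

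Of 8 tested oxygen sensing genes 3 fell and 0 rose, against 10.3% and 9.54% of all genes, with a median of -0.07. Epas1 encodes HIF-2 alpha, the hypoxia-inducible factor enriched in endothelium. It had a median of 145 CPM (81.7 to 221) in immobilized limbs, against 174 CPM (95 to 340) in control limbs, and fell by 0.30 ± 0.06 in log2 (SE, edgeR adjusted p = 0.00041) in 45 of 56 animals. Hif1a was at -0.10 ± 0.11 (SE, edgeR adjusted p = 0.53). The prolyl hydroxylase genes Egln1 and Egln3 were lower, at -0.36 ± 0.11 and -0.43 ± 0.15 (SE, edgeR adjusted p = 0.014 and 0.036), of which Egln3 lost its call with limma voom and with no filter on low counts (adjusted p = 0.0543 from limma and 0.0731 from edgeR).

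**Figure D5:**
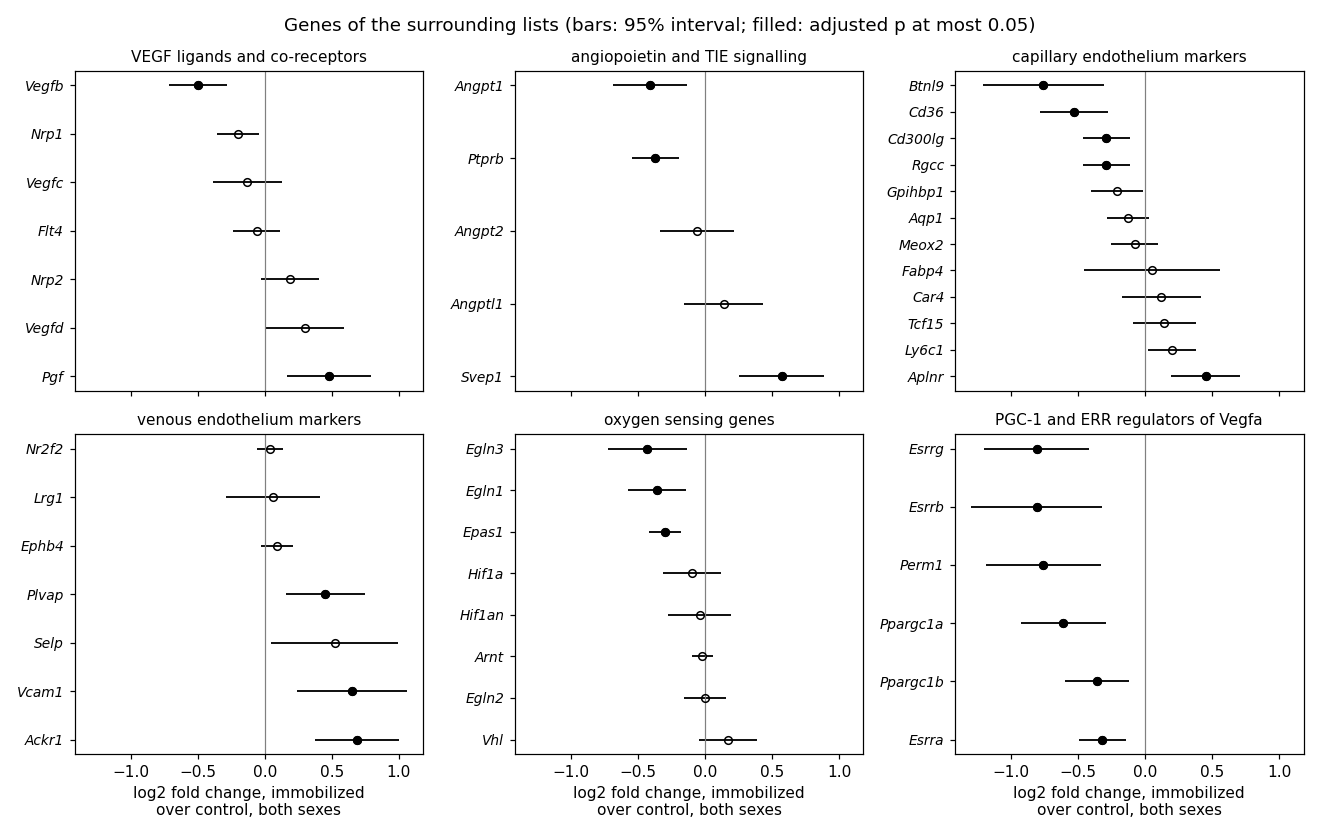
Log2 fold change of immobilized over control limbs over both sexes (x axis) for the tested genes of 6 lists, from edgeR; bars span the 95% interval and filled points have an adjusted p of at most 0.05. All 6 PGC-1 and ERR genes and 4 of 12 capillary markers lie filled left of 0, while 3 of 7 venous markers lie filled right of it.

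Among 11291 other genes with an average log2 CPM of at least 1, the change per animal was most like the mean change of the 9 endothelial genes for Mmrn2, Sema3g, Sptbn1, Ehd2, Lpgat1, Cav1, Emcn and Btnl9, with Pearson's r from 0.72 to 0.77 over 56 animals. All values of an animal come from the same 2 libraries. Without the 10 low-Acta1 animals r was 0.66 to 0.76 for these 8, and the order changed. By that r Mmrn2, Emcn, Ehd2 and Sema3g ranked 2, 6, 7 and 9. Sptbn1, Btnl9, Cav1 and Lpgat1 ranked 18, 21, 34 and 47. Mmrn2 and Emcn were on the pan-endothelial list, Sema3g on the arterial, Btnl9 on the capillary and Cav1 on the nitric oxide list. Of the 3 outside every list, Lpgat1 and Sptbn1 fell, at -0.39 ± 0.08 and -0.24 ± 0.06 (SE, edgeR adjusted p = 0.00085 and 0.0063), and Ehd2 was at 0.02 ± 0.09 (edgeR adjusted p = 0.88).

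Markers of other cells moved with the immobilized limb. Among all genes 9.54% were called higher and 10.3% lower. Of 8 macrophage markers 8 rose, with a median log2 fold change of 0.83, and their summed level was 15.3 to 1385 CPM with a median of 115 CPM in immobilized limbs, against 16.1 to 416 CPM with a median of 79.8 CPM in control limbs. Of 7 fibroblast markers 3 rose and 0 fell, with a median of 0.34 and summed medians of 1407 CPM (334 to 13243) in immobilized and 1180 CPM (316 to 4403) in control limbs. Of the platelet markers 2 were tested and Pf4, which macrophages can also express, rose by 0.75 ± 0.19 (SE, edgeR adjusted p = 0.0041); the summed level of all 7 had a median of 11.7 CPM (4.96 to 80) in immobilized limbs, against 9.34 CPM (3.72 to 28.1) in control limbs. Macrophages and platelets can carry Pecam1, and platelets Vwf; the part of these cells in the values of Pecam1 and Vwf was not tested. The 6 muscle fibre markers, the 6 adipocyte markers and the 5 tested red blood cell markers had 0 called genes each. Adipocyte markers summed to a median of 118 CPM (1.45 to 3108) in immobilized limbs, against 109 CPM (3.89 to 9089) in control limbs.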

How the data were processed

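Per the labels' protocols, RNA was extracted with an RNeasy Fibrous Tissue kit and libraries were made with Illumina's stranded total RNA kit with Ribo-Zero Plus. The authors deposited raw read counts per gene symbol, 1 table for each sex with 1 column per library. Not given in the sources used here are the aligner, the counting tool and the build. Reads carried no molecular identifiers, so errors cover counting and the spread between animals only. All 112 libraries were used, in 4 groups of 28 taken from the labels, and 0 rows named no gene. Limbs were paired by the animal number of the labels; deviations from the group mean correlated between limbs with a median of 0.36 and over 0.1 in 45 of 56 animals.

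Genes were filtered by edgeR's default, scaled by TMM and fitted in edgeR 4.0.16 (R 4.3.3) by quasi-likelihood with the animal as a block and an immobilization effect for either sex; p-values were adjusted by Benjamini-Hochberg and called at 0.05. The effect over both sexes is the mean of both effects. Sex was compared within each limb without a block. Log2 changes per animal used a prior count of 2. The code was also run on simulated counts drawn without differences between animals, so that run did not test the pairing. Alternatives were median-of-ratios scaling, a library size without mitochondrial genes, DESeq2 1.42.0, voom of limma 3.58.1, no count filter, a filter at a mean of 1 CPM, no animal block, each sex alone, number runs, and fits without the 10 low-Acta1 animals or without males 15 and 16, singled out by an earlier check of limb matching. The fit without male 52, the ratios and the relations with Vegfa were added after seeing the data. Lists are described by counts and medians; 4 symbols were matched under older names. T, B and NK cell markers had 0 tested genes.

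The members, lists and rules were chosen with earlier results of these data known. The rule names all 10 genes, up to 4 genes of each list with the smallest p over both sexes plus any past the threshold in 1 sex, and the 8 most alike. Acvrl1, Hif1a, Fpgs and Atg9b were named for their role or position, outside that rule. Rgcc, Ndrg1 and Lyve1 were also named outside it, and Esrrb, Perm1 and Ppargc1b complete a list in which all genes passed.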

Additional observations from a re-analysis of the deposited data

How the results depend on the processing

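Of 720 values of the 10 genes under the alternatives, 649 kept their direction and side of the threshold, 32 lost their call, 11 gained one and 28 changed sign. Vegfa over both sexes ran from -0.76 to -0.55 and Kdr from -0.59 to -0.31, and both kept their calls except in animals numbered 21 to 40 and 41 to 59 alone. Over both sexes the count that fell was 6, against 4 without the 10 low-Acta1 animals (Tek and Cdh5 lost), 4 with no count filter (Eng and Cdh5 lost), 4 in animals 1 to 20 (Tek and Cdh5 lost, edgeR adjusted p = 0.0701 and 0.0917) and 0 in animals 21 to 40 and in animals 41 to 59; the count that rose was 0, against 1 without the 10 animals. In males the count that fell was 2, against 0 without male 52, with no count filter and in each of the 3 number runs, and 1 without males 15 and 16. In females it was 1, against 2 without the 10 animals and in animals 1 to 20, and 0 in animals 21 to 40, in animals 41 to 59 and with each sex fitted alone; the count that rose was 0, against 1 without the 10 animals. The number runs, the fits by sex and the fits that left animals out held fewer animals, and with no filter more genes were tested. What moved these counts was not tested. Males against females had 0 called genes of the 10, against 1 in immobilized limbs with no count filter and with DESeq2 (Flt1), and 1 in control limbs with DESeq2, no count filter, a filter at a mean of 1 CPM, without males 15 and 16 (Cdh5), and without the 10 animals (Pecam1).

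No value that passed the threshold among the 10 genes changed sign. Over both sexes Nos3 changed sign without male 52 (0.02), without the 10 animals (0.06), and in animals 21 to 40 (0.05) and 41 to 59 (0.04); in animals 21 to 40 so did Tie1 (-0.08), Vwf (-0.10) and Rgcc (0.08). In females Nos3 was at -0.11 in animals 1 to 20, Pecam1 at -0.02 and Tie1 at -0.25 in animals 21 to 40, and Eng at 0.05 in animals 41 to 59. In males Tie1 was at -0.01 with no replicate block and at -0.01 without males 15 and 16, Pecam1 at -0.02 in animals 1 to 20 and -0.12 in animals 41 to 59, and Tie1 at -0.23 there. The male minus female difference changed sign for Cdh5 without male 52 (0.02) and without the 10 animals (0.01), for Kdr (0.39), Pecam1 (0.29), Cdh5 (0.30), Tie1 (0.35) and Eng (0.16) in animals 21 to 40, and for Flt1 (-0.07) and Tek (-0.19) in animals 41 to 59. Pecam1 in males against females of the immobilized limb was at 0.02 with no filter, 0.01 at a mean of 1 CPM, 0.06 with limma voom and 0.17 without the 10 animals. The log2 ratios Cdh5 to Eng and Tek to Eng changed sign without the 10 animals (0.06 and 0.02).

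Fitting with no replicate block, in place of the pairing by animal, left 6 of the 10 genes called lower over both sexes, 2 in males and 1 in females, and changed no call of the 10. Among the other genes named, it ended the calls of Hey1, Prkg1, Cldn5, Ndrg1, Pgf, Plvap, Smad7, Tagln, Acta2, Kcnj8, Rgcc and Vcam1 (edgeR adjusted p from 0.0506 to 0.672). No count filter ended those of Hey1, Prkg1, Angpt1, Cldn5, Egln3, Ndrg1, Pgf, Plvap, Ppargc1b, Rgs5, Smad7, Tagln and Thbs2 (edgeR adjusted p from 0.0538 to 0.0931), and median-of-ratios scaling those of Hey1 and Prkg1 (edgeR adjusted p = 0.0511 and 0.052). Without the 10 animals 1855 genes were called higher and 1922 lower over both sexes, against 1134 and 1230. Other scalings moved the median of all genes by no more than 0.012.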

Other observations

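Genes that respond to low oxygen did not move in 1 direction. Of 11 tested hypoxia targets 3 rose and 2 fell, against 9.54% and 10.3% of all genes, with a median log2 fold change of 0.07. Adm, which encodes the vessel-relaxing peptide adrenomedullin, rose by 0.58 ± 0.14 (SE, edgeR adjusted p = 0.003), with medians of 6.89 CPM (1.28 to 38.7) in immobilized and 4.77 CPM (0.517 to 16.4) in control limbs. Car9, a carbonic anhydrase gene, rose by 0.54 ± 0.17 and Ndrg1 by 0.25 ± 0.09 (SE, edgeR adjusted p = 0.021 and 0.039). Pdk1, a kinase that restrains pyruvate oxidation, fell by 0.41 ± 0.09 in log2, and the mitophagy gene Bnip3 by 0.34 ± 0.10 (SE, edgeR adjusted p = 0.0014 and 0.0088). Of 7 tested angiogenesis inhibitors, Thbs1 fell by 0.57 ± 0.18 in log2 and Thbs2, its relative, rose by 0.39 ± 0.14 (SE, edgeR adjusted p = 0.018 and 0.045). Thbs2 lost its call without male 52 and without the 10 low-Acta1 animals, at 0.36 and 0.33 (edgeR adjusted p = 0.0582 and 0.064), and at a mean of 1 CPM and with no filter on low counts (edgeR adjusted p = 0.0516 and 0.083).

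Of 11 markers of pericytes and smooth muscle 2 rose and 2 fell, against 9.54% and 10.3% of all genes, with a median of 0.03. The pericyte genes Rgs5 and Kcnj8 fell by 0.23 ± 0.08 and 0.27 ± 0.08 in log2 (SE, edgeR adjusted p = 0.027 and 0.017), while the contractile genes Acta2 and Tagln rose by 0.34 ± 0.11 and 0.32 ± 0.11 (SE, edgeR adjusted p = 0.021 and 0.04). Summed over the 11 genes, the level had a median of 772 CPM (536 to 1144) in immobilized limbs, against 797 CPM (508 to 1120) in control limbs. Of 6 lymphatic markers 1 rose and 0 fell, with a median of 0.18: Pdpn, which fibroblasts also express, was at 0.62 ± 0.16 (SE, edgeR adjusted p = 0.0047). Reln and Ccl21a were higher but missed the threshold, at 0.35 ± 0.13 and 0.75 ± 0.29 (SE, edgeR adjusted p = 0.056 and 0.06). Prox1 and Lyve1 were at -0.21 ± 0.13 and 0.02 ± 0.21 (edgeR adjusted p = 0.25 and 0.95).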
